A study of Mus musculus with 14 samples.

Results

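The chaperones of the endoplasmic reticulum (ER) lumen were followed as 10 genes, named by symbol and found as 10 of the 24421 rows of the count table: Hspa5, Hsp90b1, Hyou1, Dnajb11, Dnajc3, Canx, Calr, Sdf2l1, Creld2 and Manf. Total RNA of the hippocampus had been sequenced from untreated animals, 7 LPAR2-/- and 7 wild-type (WT) mice, all labelled male, of the strain 129.C57Bl6 and aged 10 to 12 weeks, with 1 library per mouse. The text deposited with the series calls the mice middle-aged to aged, and the study names the dentate gyrus in one place and the hippocampus in another, so that age and region are not settled. LPAR2-/- mice carry a germline deletion of part of an exon of Lpar2, the gene of a receptor for lysophosphatidic acid. Knockouts, bred homozygous, and controls, on a mix of C57BL/6 and 129/SvJ, came from separate colonies, so that genotype and colony cannot be told apart. Nothing else was done to either group.

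Proteins that enter the secretory pathway fold in the ER lumen with the help of resident chaperones. Hspa5 (BiP) is the Hsp70 of this compartment, and a set of partners drives or ends its cycle, while Hsp90b1 (GRP94) is its Hsp90 and the lectins Canx and Calr hold newly made glycoproteins. When unfolded proteins accumulate, the sensors of the unfolded protein response raise transcription of most of these genes through a shared promoter motif, the ER stress element (ERSE). In neurons this machinery serves receptors, channels and secreted peptides.

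All 10 chaperones had a lower level in LPAR2-/- mice, and 7 of them fell past the threshold, an adjusted p under 0.05 in edgeR's quasi-likelihood test over 14897 genes. No chaperone rose. Of all genes tested, 3.46% fell past the threshold and 6.77% changed in either direction. The 10 genes were chosen with earlier results of these data known, so that their count beside this share is not independent evidence. The log2 fold changes of the 10 chaperones had a median of −0.40, whereas the median over all genes tested was 0.0029 and 48.9% of them were below 0. In tissue RNA, fewer cells of a type and less RNA per cell cannot be told apart.

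The 14 libraries held between 15434620 and 23258949 counts on genes, with medians of 19499276 in LPAR2-/- and 19964167 in WT mice, of which between 3.25% and 3.63% fell on the top 10 genes. The targeted gene went against the labels: Lpar2, on chromosome 8 of mm10 from 69822565 to 69831102, had 9.55 ± 1.41 CPM (counts scaled to a common library size, SD, n = 7) in the libraries labelled LPAR2-/- and 2.36 ± 0.676 CPM in WT libraries, without overlap. The deletion takes only part of an exon, and the counts are per gene, so that transcripts of what remains can still be counted. Whether they are, or whether labels are exchanged, was not tested, and an exchange would turn every direction given here. Nor was it tested why Lpar2 counts in libraries labelled LPAR2-/- lay above those of WT libraries (log2 fold change 2.01). LPAR2-/- mice below are thus the libraries labelled LPAR2-/-. Marker genes of hippocampal neurons summed to between 2110 and 2576 CPM in LPAR2-/- and between 2083 and 2767 CPM in WT mice. Most of that sum was Slc17a7, with means of 1507 CPM in LPAR2-/- and 1489 CPM in WT mice, so it says little about subfields. Cpne7 ran from 36.9 to 248.9 CPM in LPAR2-/- and from 55.9 to 315.8 CPM in WT mice. Fibcd1 ran from 19.7 to 46.3 and from 25.6 to 154 CPM. Of the 10 markers 4 had a log2 fold change below 0, and 0 passed the test.

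The promoters of the set were read first, since its members are known to share a motif. RefSeq windows of GRCm38.p6, each 300 bases long with 250 before and 50 after the annotated start, were matched by symbol for 8 of the 10 genes, all except Hyou1 and Manf. ERSE was searched on both strands as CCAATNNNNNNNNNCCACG and ERSE-II as ATTGGNCCACG, where N is any base. ERSE was found in 6 of the 8 windows and in 39 of all 32851 windows (0.119%). ERSE-II was found in 1 of the 8, that of Dnajb11, and in 12 of all windows (0.0365%). Each match holds the shorter word CCACG, and each ERSE also CCAAT, which on their own occur in 32.8% and 37.4% of all windows. ERSE lay in the windows of the abundant Hspa5, Hsp90b1, Canx and Calr, and also in those of the less abundant Dnajc3 and Creld2. The matches are shown here, written in the direction of the motif with the fixed letters in capitals and the spacer in lower case.
Hspa5: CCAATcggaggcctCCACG
Hsp90b1, farther match: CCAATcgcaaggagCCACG
Hsp90b1, nearer match: CCAATcgtgcctcaCCACG
Canx: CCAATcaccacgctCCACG
Calr: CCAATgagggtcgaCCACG
Dnajc3: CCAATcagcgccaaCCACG
Creld2: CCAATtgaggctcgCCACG
Dnajb11, ERSE-II: ATTGGcCCACG

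Counted from the start, with no position 0, the match of Hspa5 lay from −65 to −47 (chr2:34772025-34772043). Hsp90b1 held one match from −212 to −194 (chr10:86705638-86705656) and another from −107 to −89 on the opposite strand (chr10:86705533-86705551). That of Canx lay from −145 to −127 (chr11:50325800-50325818) and that of Dnajc3 from −105 to −87 (chr14:118937827-118937845). The matches of Calr, from −162 to −144 (chr8:84847075-84847093), and of Creld2, from −126 to −108 (chr15:88819520-88819538), were on the strand opposite to the gene. ERSE-II of Dnajb11 lay after the start, from 8 to 18 (chr16:22857852-22857862). Of the 6 genes with ERSE, Hspa5, Hsp90b1, Canx and Calr fell and Dnajc3 and Creld2 did not pass the test.

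Upstream windows of 250 bases are given for Hspa5 (chr2:34771840-34772089, + strand) and Hsp90b1 (chr10:86705445-86705694, − strand), abundant chaperones with the motif, and for Sdf2l1 (chr16:17132384-17132633, − strand), the rarest member, in which neither motif was found. They run 5′ to 3′ along the gene, and capitals mark every CCAAT and CCACG on either strand, those of the opposite strand reading ATTGG and CGTGG.
Hspa5: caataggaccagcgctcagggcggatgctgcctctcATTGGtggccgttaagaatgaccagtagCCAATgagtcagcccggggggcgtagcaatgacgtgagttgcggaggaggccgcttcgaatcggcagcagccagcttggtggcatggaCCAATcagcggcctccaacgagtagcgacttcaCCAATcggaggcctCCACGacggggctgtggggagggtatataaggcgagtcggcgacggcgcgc
Hsp90b1: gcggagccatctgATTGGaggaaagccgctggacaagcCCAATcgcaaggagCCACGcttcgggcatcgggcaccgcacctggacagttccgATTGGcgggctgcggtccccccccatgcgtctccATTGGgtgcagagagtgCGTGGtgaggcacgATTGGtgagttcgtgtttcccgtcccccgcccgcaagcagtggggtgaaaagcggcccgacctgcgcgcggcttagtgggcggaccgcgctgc
Sdf2l1: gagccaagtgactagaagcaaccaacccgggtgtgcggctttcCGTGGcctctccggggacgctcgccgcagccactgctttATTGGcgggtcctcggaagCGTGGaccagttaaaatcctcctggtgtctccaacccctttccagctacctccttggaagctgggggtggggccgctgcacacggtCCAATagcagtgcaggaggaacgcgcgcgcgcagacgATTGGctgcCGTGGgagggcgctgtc

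Hspa5 held 4 CCAAT words and 1 CCACG in these 250 bases, Hsp90b1 5 and 2, and Sdf2l1 3 and 3. In Sdf2l1 no pair of the words had the spacing of ERSE. Over all genes tested that have a window, 18 held ERSE, of which 5 fell past the threshold (27.8%), against 402 of 11244 genes with a window (3.58%). Without the 6 members, 12 genes with ERSE remained, of which 1 fell past the threshold, the disulfide isomerase Pdia6. The median log2 fold change of these 12 was −0.04.

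Hspa5, on chromosome 2 from 34772090 to 34776529 with 8 annotated exons, had 281.2, 497.1, 426, 547.7, 468.6, 418.4 and 259.6 CPM in WT mice 1 to 7. In LPAR2-/- mice 1 to 7 it had 229.7, 261.7, 307.3, 223.4, 234.4, 240.6 and 258.8 CPM. WT mice 1 and 7 lay in the range of the LPAR2-/- mice, and the other 5 WT mice lay above every LPAR2-/- mouse. Its mean fell from 414 ± 108 CPM (SD, n = 7) to 250.8 ± 28.7 CPM (SD, n = 7), a log2 difference of −0.72 (standard error 0.151, edgeR adjusted p = 0.0129).

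Of the partners that act on the cycle of Hspa5, Hyou1 and Dnajb11 fell and Dnajc3 did not pass the test. Hyou1, the large Hsp70-like protein that exchanges the nucleotide of BiP (chromosome 9, 44379490 to 44392369), fell from 173.5 ± 22.3 CPM to 139.2 ± 10.6 CPM (log2 fold change −0.32, standard error 0.0749, adjusted p = 0.0204 in edgeR). Dnajb11 (ERdj3), a J-protein that brings unfolded clients to BiP (chromosome 16, 22857845 to 22879634), fell from 68.8 ± 7.86 CPM to 55.4 ± 4.29 CPM (−0.31, standard error 0.0699, edgeR adjusted p = 0.0149). It overlaps Gm30505 on the opposite strand, and reads were counted by strand. Dnajc3 (p58IPK), another J-protein (chromosome 14, 118937932 to 118981702), had 75.3 ± 11.4 CPM in WT and 62.5 ± 4.43 CPM in LPAR2-/- mice and did not pass the test (−0.27, standard error 0.0835, edgeR adjusted p = 0.0669). Its LPAR2-/- mice ranged from 56.0 to 67.3 CPM and its WT mice from 58.1 to 91.0 CPM, so that WT mice 1 and 7, at 58.1 and 65.9 CPM, lay inside the LPAR2-/- range.

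Sdf2l1, a small ER protein that works in a complex with Dnajb11, had the largest fold change and the fewest counts of the set, between 108 and 395 per mouse (chromosome 16, 17130138 to 17132383). Its values were 7.80, 15.5, 14.6, 19.8, 12.8, 12.0 and 6.53 CPM in WT mice 1 to 7 and 5.64, 7.73, 8.23, 7.63, 6.00, 6.99 and 6.91 CPM in LPAR2-/- mice 1 to 7. Again 5 WT mice lay above all LPAR2-/- mice, and WT mice 1 and 7 among them. The log2 fold change of Sdf2l1 was −0.86 with a standard error of 0.203 (adjusted p = 0.0220 in edgeR), and without WT mouse 2 it no longer passed (adjusted p = 0.0503).

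Hsp90b1, on chromosome 10 from 86690841 to 86705444, fell from 536 ± 101 CPM to 383.5 ± 48.0 CPM (log2 fold change −0.48, standard error 0.113, adjusted p = 0.0213, edgeR). Its LPAR2-/- mice ranged from 348.2 to 485.4 CPM with a median of 364.9 CPM, and its WT mice from 379.7 to 689.2 CPM with a median of 566.3 CPM. The highest LPAR2-/- value was that of mouse 3, the next being 395.4 CPM in mouse 2. Hsp90b1 folds a narrow range of clients that includes integrins and Toll-like receptors.

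The lectin chaperones differed in their spread. Calr, the soluble calreticulin (chromosome 8, 84842088 to 84846931, about 15 Mb from Lpar2), fell from 503 ± 80.6 CPM to 369.5 ± 45.8 CPM (log2 fold change −0.45, standard error 0.101, edgeR adjusted p = 0.0183). Canx, the membrane-bound calnexin (chromosome 11, 50293957 to 50325673), had the smallest fold change and the smallest spread. It fell from 451 ± 29.4 CPM to 387.5 ± 22.4 CPM (−0.22, standard error 0.0479, edgeR adjusted p = 0.0132). WT mice 1 to 7 had 397, 467.7, 449.4, 490.9, 467.2, 448.2 and 439.2 CPM of Canx, and LPAR2-/- mice 384, 387.2, 435, 373.8, 384.3, 364.6 and 383.4 CPM. For Canx 6 WT mice lay above every LPAR2-/- mouse, and WT mouse 1 below LPAR2-/- mouse 3 only.

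Manf and Creld2, small ER proteins that are also secreted, did not pass the test. Manf, a neurotrophic factor that binds BiP (chromosome 9, 106887415 to 106891938), had 47.9 ± 12.7 CPM in WT and 34.4 ± 3.22 CPM in LPAR2-/- mice (log2 fold change −0.48, standard error 0.150, edgeR adjusted p = 0.0724). Creld2 (chromosome 15, 88819646 to 88826681) had 20.3 ± 5.42 CPM and 15.96 ± 1.06 CPM (−0.35, standard error 0.146, edgeR adjusted p = 0.174). In both genes WT mouse 7 had the lowest value of all 14 mice, at 27.9 CPM of Manf and 11.8 CPM of Creld2. Creld2 was also lower in WT mouse 1, at 14.2 CPM, than in every LPAR2-/- mouse. The unadjusted edgeR p was under 0.05 for all 10 chaperones, but also for 3340 of the 14897 genes tested. The adjusted p was under 0.05 for 7 of the 10. When WT mouse 7 was left out, all 10 passed (Creld2 with an edgeR adjusted p of 0.0269), and when WT mouse 1 was left out, 9 did. Over all genes tested, 520 fell past the threshold without WT mouse 7 and 725 without WT mouse 1, against 515 with all mice.

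**Figure D1:**
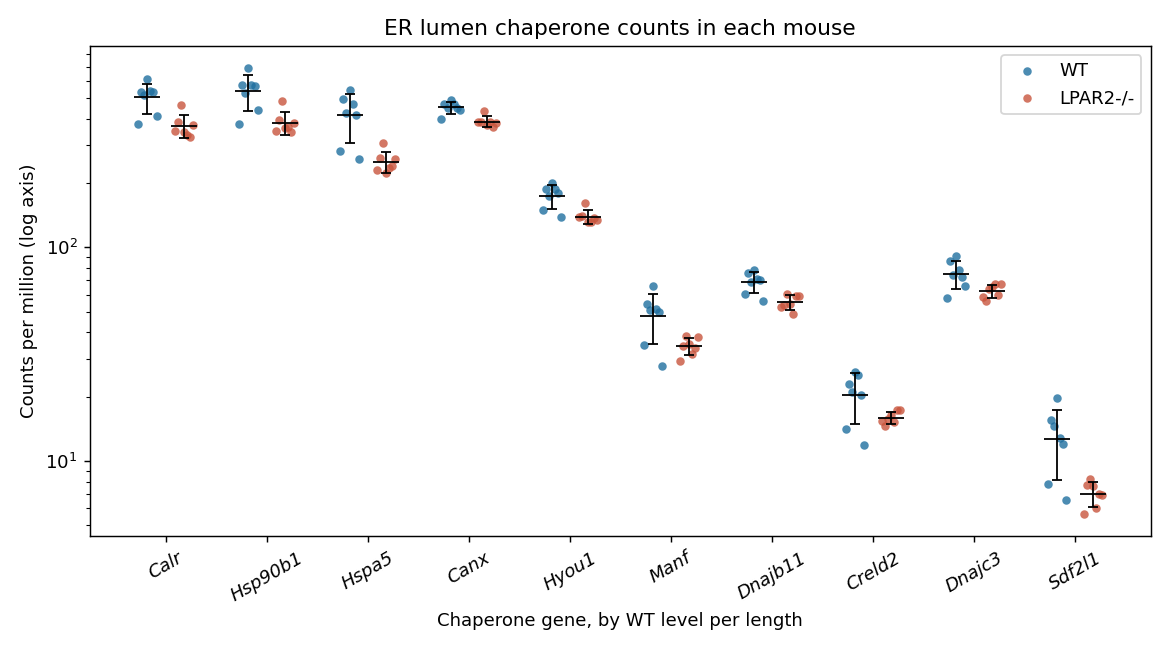
CPM on a log axis for each chaperone, ordered by WT level per length, with 1 point per mouse (7 WT, 7 LPAR2-/-; mice 1 to 7 from left to right) and bars for mean ± SD. For 9 genes 5 WT mice and for Canx 6 WT mice sit above the highest LPAR2-/- mouse, and the other WT mice sit within or below the LPAR2-/- range.

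No chaperone separated the genotypes without overlap, and of all genes tested 0.906% were lower in every LPAR2-/- than in every WT mouse, so that 0 of 10 says nothing particular about the chaperones. The overlap came from WT mice 1 and 7, and for Canx from WT mouse 1 alone. WT mice 1 and 7 had the 2 lowest WT values of all 10 chaperones, mouse 1 the lowest of 4 and mouse 7 the lowest of 6. WT mouse 4 had the highest value of all 10. As a mean over the 10 genes, the log2 level differed from the WT mean by −0.38 in WT mouse 1 and −0.43 in WT mouse 7, by between 0.05 and 0.19 in WT mice 2, 3, 5 and 6, and by 0.36 in WT mouse 4. LPAR2-/- mice ranged from −0.52 in mouse 1 to −0.23 in mouse 3, and in none of them did any chaperone reach the WT mean. WT mice 1 and 7 had 21405399 and 17412871 counts, both inside the range of the other WT mice.

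**Figure D2:**
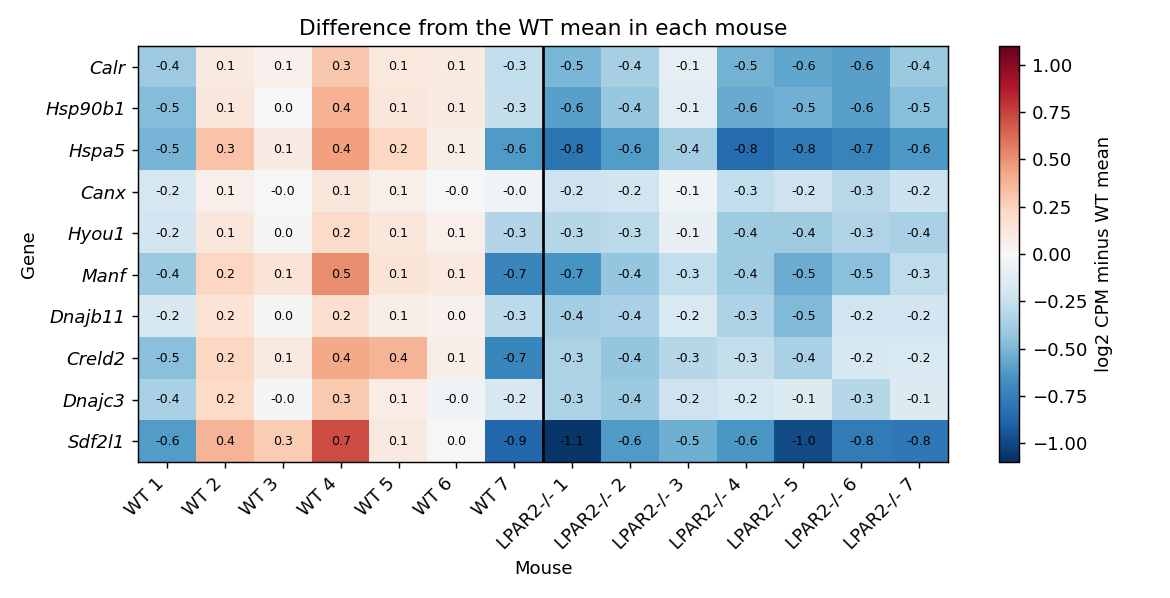
Log2 CPM of each chaperone (rows) in each mouse (columns) minus the WT mean of that gene, as a colour and a printed value. The columns of WT mice 1 and 7 are below the WT mean for every gene, as are all 7 columns of LPAR2-/- mice.

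The spread between mice was far above counting error in WT mice. The coefficient of variation of the CPM was 6.52% for Canx, between 11.4% and 18.8% for Dnajb11, Hyou1, Dnajc3, Calr and Hsp90b1, between 25.97% and 26.7% for Hspa5, Manf and Creld2, and 35.7% for Sdf2l1. Counting alone gives between 0.977% for Hsp90b1 and 6.31% for Sdf2l1. In LPAR2-/- mice the coefficients ran from 5.78% for Canx to 13.4% for Sdf2l1. Across the 10 genes, those with a larger SD of log2 CPM among WT mice had the lower log2 fold change (Pearson r = −0.82, Spearman rho = −0.81, a description over 10 genes that share the same mice). The same held for the SD among LPAR2-/- mice (r = −0.87, rho = −0.83). The values of each genotype enter both quantities.

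Levels were compared between genes per length, as TPM, counts per base of gene scaled to the same total in each mouse. In WT mice Calr had 804 TPM, Hsp90b1 604, Hspa5 492 and Canx 327 TPM, and then followed a gap of 2.69-fold, the largest in the order, to Hyou1 with 121.6 TPM. Manf had 67.5, Dnajb11 66.0, Creld2 46.2, Dnajc3 45.1 and Sdf2l1 35.7 TPM. The split thus sets Hsp70, Hsp90 and both lectins above the partners of Hspa5 and the small secreted proteins. Even Sdf2l1 was at percentile 58.1 of the levels of all genes tested, and Calr at percentile 99.3.

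Within mice, 7 of the 9 neighbours in this order differed in WT mice (exact two-sided sign-flip permutation test of the log2 ratio over 7 mice, adjusted over 9 pairs). The upper gene was higher in 7 of 7 WT mice in 5 of these pairs. The order was set by the means of the same WT mice, so that the upper gene of a pair was not chosen independently. With 6 mice the smallest exact p is 0.03125, which after adjustment over 9 pairs passes only if at least 6 pairs reach it, so that the counts without 1 mouse (6 without WT mouse 4, 5 or 7, 0 without WT mouse 1, 2, 3 or 6) say nothing about stability. Canx was above Hyou1 in 7 of 7 mice (2.70-fold, adjusted p = 0.0281 in that exact test). Manf and Dnajb11 could not be ordered, nor could Creld2 and Dnajc3 (adjusted p = 0.953 for both, exact test). Each of these pairs was ordered one way in WT mice 2 to 6 and the other way in WT mice 1 and 7. Manf, for example, had 94.1 TPM against 75.6 TPM of Dnajb11 in WT mouse 4, and 39.1 against 53.7 TPM in WT mouse 7. In LPAR2-/- mice 7 of 9 neighbours differed as well. There Manf was below Dnajb11 in 7 of 7 mice (exact adjusted p = 0.0201), and Hspa5 and Canx could not be ordered (Hspa5 higher in 4 of 7 mice, exact adjusted p = 0.141).

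The abundant genes took most of the transcripts in both genotypes. Calr, Hsp90b1, Hspa5 and Canx held 85.4% of the summed TPM of the 10 chaperones in WT mice (range 84.6% to 86.6%) and 84.5% in LPAR2-/- mice (83.3% to 85.9%). The sum itself was 2609 ± 482 TPM (SD, n = 7) in WT and 1894 ± 181 TPM (SD, n = 7) in LPAR2-/- mice, with ranges of 1903 to 3270 and 1763 to 2281 TPM. The log2 fold change showed no relation to the WT level over the 10 genes (r = −0.025, rho = −0.10). Large fold changes stood at both ends of the order, in Hspa5 and in Sdf2l1, and so did small ones, in Canx and in Dnajc3.

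**Figure D3:**
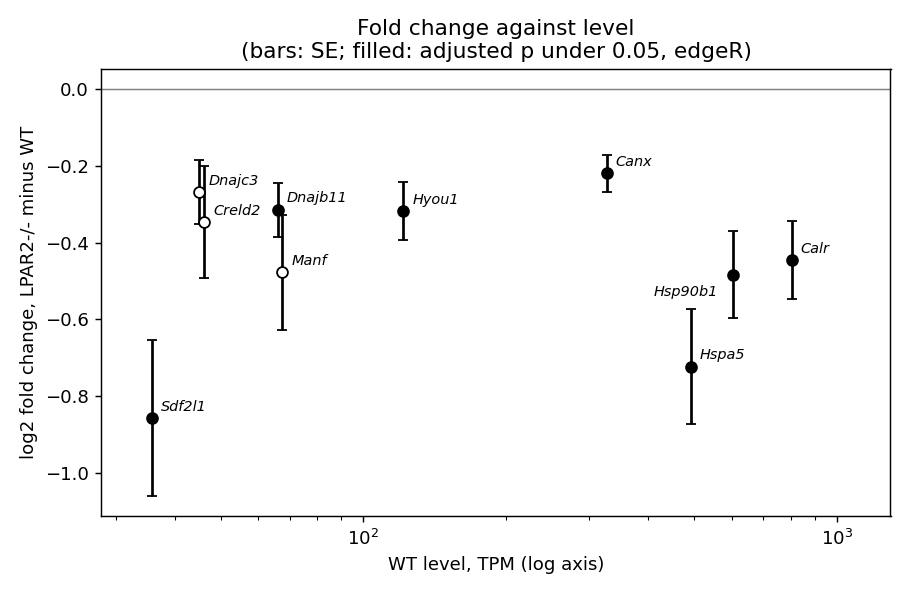
Log2 fold change of LPAR2-/- against WT with its standard error for each chaperone, over the WT level in TPM on a log axis; filled points passed the test and open points did not. All points lie below 0, from −0.22 (Canx) to −0.86 (Sdf2l1), at low and at high levels alike.

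Hspa5 fell relative to the other abundant chaperones. The ratio of Hspa5 to Canx counts within a mouse was 0.708, 1.06, 0.948, 1.12, 1.00, 0.934 and 0.591 in WT mice 1 to 7, and lay between 0.598 and 0.707 in LPAR2-/- mice. Hspa5 to Calr ranged from 0.629 to 0.932 in WT and from 0.642 to 0.730 in LPAR2-/- mice, and Hspa5 to Hsp90b1 from 0.590 to 0.865 and from 0.620 to 0.691. In each ratio 6 WT mice were above all LPAR2-/- mice, and WT mouse 7 had the lowest value of all 14 mice. The log2 ratios differed by −0.46 for Canx (p = 0.00991), −0.25 for Calr (p = 0.0111) and −0.21 for Hsp90b1 (p = 0.0128) by exact permutation of the genotype labels (two-sided), each with an adjusted p of 0.0128 over 3 ratios. These ratios need no scaling between libraries. Hspa5 took 18.6% of the summed chaperone TPM in WT mice (14.99% to 20.7%) and 15.7% in LPAR2-/- mice (14.8% to 16.2%).

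**Figure D4:**
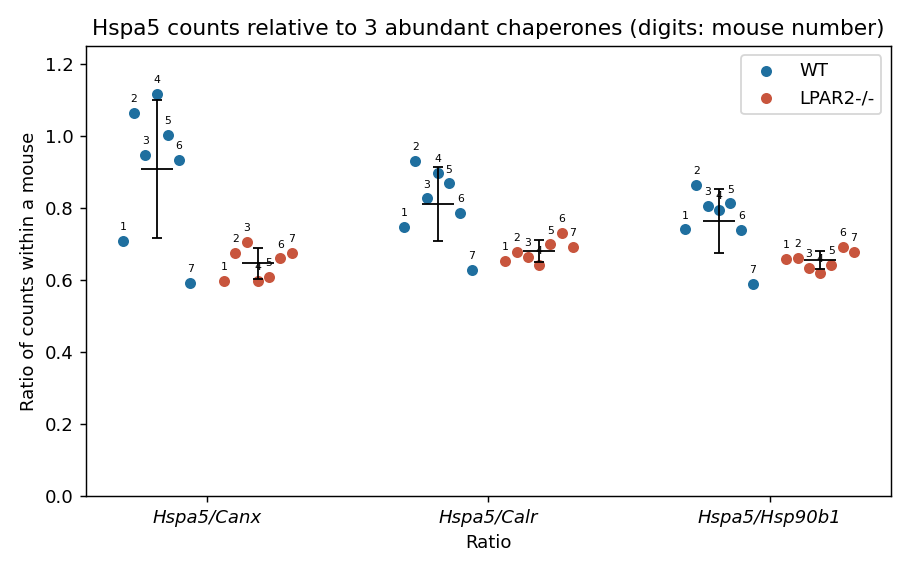
Counts of Hspa5 divided by those of Canx, Calr or Hsp90b1 within each mouse, with the mouse number above its point and bars for mean ± SD (7 mice per genotype). The ratio to Canx spans 0.591 to 1.12 in WT mice and 0.598 to 0.707 in LPAR2-/- mice, with WT mouse 7 at the bottom in all 3 ratios.

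The chaperones varied together from mouse to mouse. Among the 7 WT mice all 45 pairs of genes had a Pearson r over 0.7 (log2 CPM), with a median of 0.93 and a range of 0.75 to 0.99, and the first principal component held 92.8% of the variance. The median Spearman rho was 0.93. Of these pairs 41 passed an exact permutation test of r adjusted over 90 relations, 45 per genotype (42 by rho), and the other 4 were those of Canx with Dnajb11, Sdf2l1, Creld2 and Manf. These values rest in part on WT mice 1 and 7, which lie apart from the rest. Leaving out the 2 mice farthest from the median of one gene lowered the median r to 0.85, with 42 pairs over 0.7, but only 5 mice remain and no test was made. For comparison, 13.1% of all other genes tested had an r over 0.7 with Hspa5 among WT mice, and 2.96% among LPAR2-/- mice.

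Among the 7 LPAR2-/- mice r was higher within the abundant genes than within the others. The 6 pairs within Calr, Hsp90b1, Hspa5 and Canx all had an r over 0.7, with a median of 0.94, whereas the 15 pairs within the other 6 genes had a median of 0.41 and 2 over 0.7. The 24 pairs between both sides had a median of 0.51 and 4 over 0.7, each of them with Hyou1. Among WT mice the same medians were 0.94, 0.96 and 0.92. Over all 45 pairs in LPAR2-/- mice the median r was 0.53, the median rho 0.43, and 12 pairs had an r over 0.7. By Pearson r 8 pairs passed the exact test, and by Spearman rho 2. Dnajc3 and Creld2 had the lowest median r against the other 9 genes, 0.01 and −0.10, and an r with Hspa5 of −0.04 and −0.10. Counting error was a larger share of the spread in the rare genes. Among LPAR2-/- mice the coefficient of variation of Creld2 was 6.65% with 5.68% from counting, and that of Sdf2l1 13.4% with 8.51%, against 11.5% with 1.43% for Hspa5. For Dnajc3 it was 7.09% with 2.86%. The part of counting error in the low correlations was not tested.

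LPAR2-/- mouse 3, which had the highest value of 8 of the 10 genes in its genotype, carried part of these correlations. Without it, 5 of the 45 pairs had an r over 0.7 instead of 12, and 3 of the 6 pairs among the abundant genes, whose median was then 0.69 (range 0.36 to 0.86). Without any other single LPAR2-/- mouse all 6 stayed over 0.7. Leaving out the 2 mice farthest from the median of one gene brought the median of the abundant pairs to 0.51 and that of the pairs among the other 6 genes to −0.04. Mouse 3 had 23258949 counts, the most of all libraries. The difference in correlation between the genotypes was not tested.

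**Figure D5:**
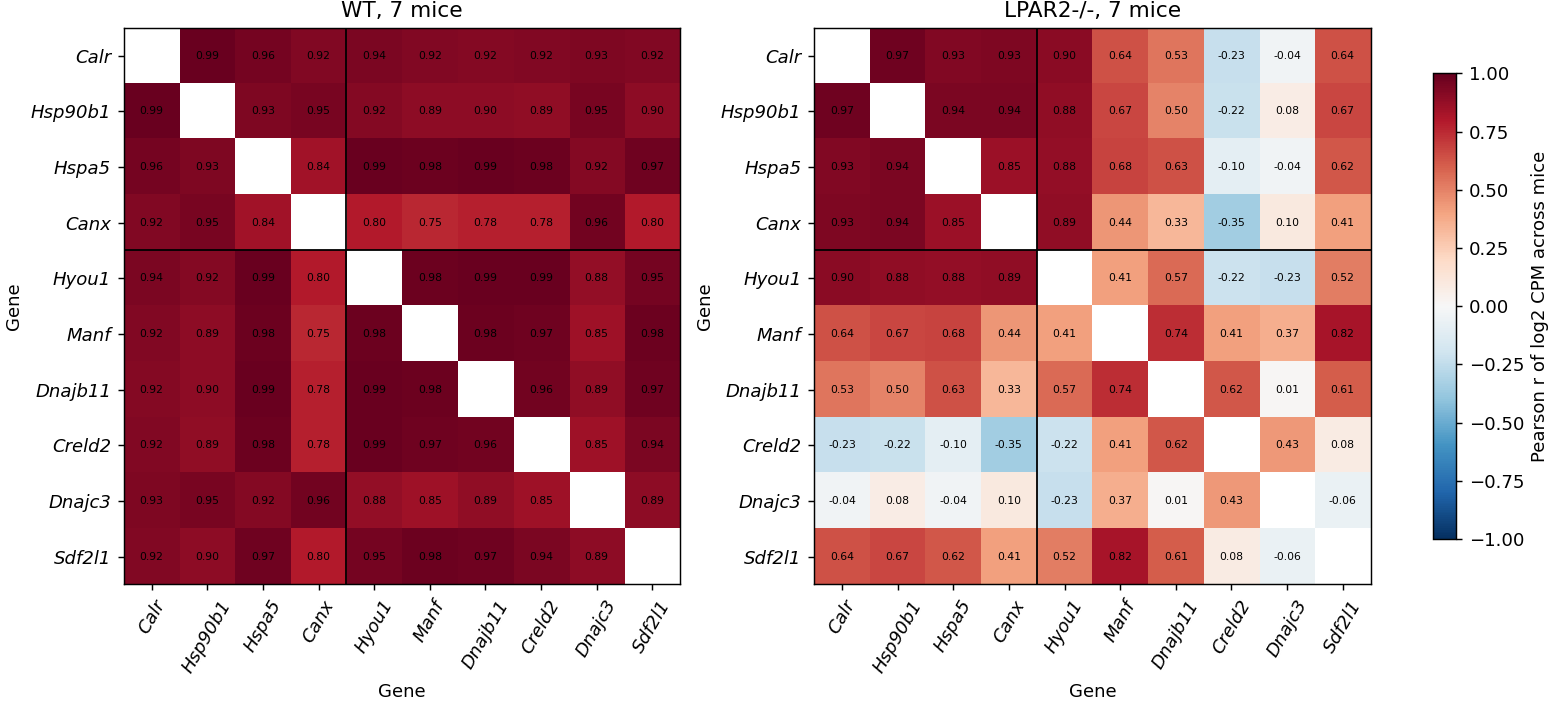
Pearson r of log2 CPM for each pair of chaperones across 7 WT mice (left) and 7 LPAR2-/- mice (right), genes ordered by WT level and lines setting off the 4 most abundant. In WT mice all 45 values exceed 0.7, and in LPAR2-/- mice 12 do, among them all 6 within the abundant genes, while Creld2 and Dnajc3 are near or below 0 with most others.

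To see which other genes followed Hspa5, its log2 CPM was correlated with that of 14896 genes over all 14 mice after the genotype means had been removed. The 10 nearest held 5 chaperones of the set, Hyou1 (r = 0.96), Manf (0.94), Sdf2l1 (0.93), Calr (0.92) and Hsp90b1 (0.92). The disulfide isomerases Pdia4 (0.97), Pdia6 (0.95) and Pdia3 (0.94), which form and shuffle disulfide bonds in the ER, were among them too. So were Lrch3 (0.91) and Herpud1 (0.90), a protein of ER-associated degradation. Dnajb11 was at rank 13, Creld2 at 14, Canx at 104 and Dnajc3 at 158. WT mice, with the wider spread, weigh more in these values. Within LPAR2-/- mice alone r with Hspa5 was 0.51 for Lrch3, 0.43 for Herpud1, 0.77 for Pdia4 and −0.10 for Creld2, and within WT mice it was 0.98, 0.95, 0.997 and 0.98.

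Over 5 lists of other ER folding genes, with 90 genes tested, 7 fell (7.78%, against 3.46% of all genes tested) and 0 rose. Only 2 of these 7 passed when the mouse number was fitted as a block. Of the 90, 61 were below 0 (67.8%, against 48.9% of all genes), with a median of −0.03. Of 17 disulfide isomerases 3 fell, Pdia6 (−0.58, edgeR adjusted p = 0.0145), Pdia4 (−0.56, 0.0298) and Pdia3 (−0.34, 0.0208), and the list median was −0.04. Of 17 sensors and factors of the unfolded protein response 1 fell, the transcription factor Xbp1 (−0.54, edgeR adjusted p = 0.0227), and the list median was 0.01. Atf6 (0.01), Ern1 (0.07), Atf4 (0.03) and Ddit3 (−0.12) did not pass, nor did Herpud1 (−0.20, edgeR adjusted p = 0.0505). Of these 17 genes 8 were below 0. Of 23 other ER folding factors Dnajc1 (−0.25) and Uggt1 (−0.19) fell, and of 16 translocation genes Srprb (−0.19). Of 17 genes of ER-associated degradation 0 passed and 13 were below 0. With single mice left out, Pdia4 missed the threshold in 8 of 14 fits (at most 0.0691, edgeR). Xbp1 missed it in 2 (at most 0.0518, edgeR), those without WT mouse 2 or 5. With the mouse number as a block, Pdia6 and Dnajc1 passed, and Pdia3, Pdia4, Xbp1, Uggt1 and Srprb did not. The medians of the folding, translocation and degradation lists were −0.04, −0.03 and −0.05. Among WT mice the list means of the disulfide isomerases and degradation genes had an r with Hspa5 of 0.98 and 0.89. Both passed an exact permutation test adjusted over 30 relations of lists with Hspa5 (adjusted p = 0.0238 and 0.0496), but not by rho (0.101 and 0.205). Among LPAR2-/- mice r was 0.79 and 0.91, and neither passed that exact test (adjusted p = 0.17 and 0.0506).

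Some chaperones of other compartments fell too. Of 21 cytosolic and mitochondrial heat shock proteins 9 fell (3.46% of all genes tested did), 0 rose and 12 did not pass, with a median of −0.18. Of the 9, Hspd1 missed the threshold in 9, Dnajb1 in 6 and Dnaja1 in 4 of the 14 fits with a mouse left out, each of them without WT mouse 2 (edgeR adjusted p = 0.0897, 0.0612 and 0.0619). Among the 9 were Hspa8 (−0.37, edgeR adjusted p = 0.00411), the constitutive cytosolic Hsp70, and its exchange factor Hsph1 (−0.38, 0.00544). So were the Hsp90 partner Chordc1 (−0.35, 0.0123) and the mitochondrial co-chaperonin Hspe1 (−0.33, 0.0111). With the mouse number fitted as a block, Hspe1, Hspa4, Dnaja1 and Hspd1 missed the threshold. In WT mouse 4 the mean of this list was 0.17 above the WT mean on the log2 scale, and in WT mice 1 and 7 it was −0.08 and −0.06, the lowest values in WT. In LPAR2-/- mouse 3 it was 0.03, and in the other LPAR2-/- mice between −0.34 and −0.14.

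Activity-related and clock genes were compared in the same mice. All 9 activity-related genes the study names fell, with a median of −0.94, a list that the study drew from these samples and that is not independent evidence. Egr2 (−2.50), Fos (−1.86), Fosb (−1.46) and Npas4 (−1.19), immediate early transcription factors, fell most. The mean of the 9 was lowest in WT mouse 7 (−0.60) and highest in WT mouse 4 (0.60), yet WT mouse 3 (−0.50) was low in it while its chaperones were at 0.07. LPAR2-/- mouse 3, the highest for chaperones, was at −1.02, within the range of −1.33 to −0.89 in its genotype. Of 14 clock genes 2 fell, such as Arntl (−0.40), and 4 rose, such as Dbp (0.90), Ciart (0.87) and Nr1d2 (0.21). The mean of the activity-related genes had an r with Hspa5 of 0.77 in WT and 0.26 in LPAR2-/- mice, and that of the clock genes 0.81 and −0.77. None of these 4 passed an exact permutation test adjusted over 30 relations of lists with Hspa5 (adjusted p from 0.119 to 0.84; rho 0.71, 0.21, 0.54 and −0.39). Without the 2 farthest mice r was 0.92 and −0.24 for the activity-related genes, and 0.74 and −0.60 for the clock genes. The part of any of these in the chaperone levels was not tested.

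Of markers of neurons, astrocytes, oligodendrocytes, microglia, endothelium and choroid plexus 0 passed the test. Of 6 meningeal fibroblast markers, Lum rose (0.54, edgeR adjusted p = 0.0132), and 0 of the 6 was at 0 counts in any mouse. The list median was 1.05, with log2 fold changes of 1.34 for Slc22a6, 1.23 for Col1a2, 1.09 for Col1a1 and 1.00 for Igf2, which did not pass the test, and −0.04 for Dcn. Their sum averaged 215.9 CPM in LPAR2-/- mice (67.7 to 346 CPM) and 117.3 CPM in WT mice (49.3 to 252.5 CPM). Among LPAR2-/- mice the mean of the list had an r of −0.93 with Hspa5 (exact permutation, adjusted p = 0.0496 over 30 relations) and a rho of −0.82 (adjusted p = 0.205, exact), and r was −0.82 without the 2 farthest mice. Among WT mice r was 0.41 (exact adjusted p = 0.617) and rho 0.57. It was lowest in LPAR2-/- mouse 3, the highest of its genotype for chaperones, and in WT it was highest in mouse 4, again the highest for chaperones. The 3 choroid plexus markers tested summed to between 25.5 and 277.9 CPM in LPAR2-/- and between 28.3 and 33.0 CPM in WT mice, with the top value in LPAR2-/- mouse 2. The part of these cells in the chaperone levels was not tested.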

How the data were processed

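Hippocampal RNA of 7 LPAR2-/- and 7 WT mice was sequenced on its own for each mouse. The authors used cutadapt 1.18 for trimming, STAR for alignment to mm10, and featureCounts 1.6.3 for counts of exon reads per gene on the reverse strand. The deposited counts carry no normalization and were used here. A deposited table of normalized values was not used, because its decimal marks are damaged.

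Of 24421 genes, 14897 passed filterByExpr and were tested in R 4.3.3 with edgeR 4.0.16 (TMM, robust quasi-likelihood F test, 7 against 7 mice, no covariates, Benjamini-Hochberg adjustment over all of them). The threshold was an adjusted p of 0.05. CPM values are scaled by TMM, log2 CPM has a prior count of 2, and TPM was computed from counts and the deposited gene lengths. Alternatives used DESeq2 1.42.0, limma 3.58.1, other scalings and filters, the mouse number as a block, and each mouse left out. Correlations were tested over all 5040 pairings of 7 mice. The procedures were tested on simulated data. The labels do not say more than that each library is a mouse, and mice of a genotype may share litters. The chaperones, the lists and the genes named were chosen with earlier results of these data known. Named are the chaperones, Lpar2, up to 4 genes per list with the largest change past the threshold, and the 10 genes nearest to Hspa5. Atf6, Ern1, Atf4, Ddit3, Hspa4, Hspd1, Dnajb1, Dnaja1, Slc17a7, Cpne7, Fibcd1 and the meningeal markers were named besides, chosen after their values were seen. No 2 libraries of a genotype agreed within sampling noise (42 pairs, chi-square over degrees of freedom at least 3.35).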

Additional observations from a re-analysis of the deposited data

Results flagged for a closer look

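In 4 of 26 groups of 7 values examined for a mouse far from the others, the highest value stood off by more than Dixon's limit, and each time it was LPAR2-/- mouse 3. The gap to the next mouse as a share of the whole range was 0.691 for Hyou1, 0.679 for Canx, 0.656 for Hsp90b1 and 0.577 for Calr. Chance flags about 1 group in 20, and the 4 genes vary together, so that they count as 1 observation. In that mouse Hyou1 had 161.9 CPM, Canx 435 CPM, Hsp90b1 485.4 CPM and Calr 463 CPM.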

How the results depend on the processing

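All 10 chaperones kept a negative fold change under every alternative run. The 7 that passed did so with other size factors, filters and limma, and under a replicate block on the mouse number. DESeq2 gave 9, with Dnajc3 and Manf added, but it also called 1388 genes in all against 1009, of which 717 against 515 fell. Leaving out 1 mouse gave between 6 and 10 (6 without WT mouse 2, 9 without WT mouse 1, 10 without WT mouse 7). The mouse numbers do not pair the mice (correlations of −0.334 to 0.311, 3 of 7 over 0.1), and the replicate block called 586 genes, 558 of them among the 1009, and 2 of the 7 called in the 5 ER lists. Without 1 mouse between 567 and 1385 genes were called. Upper-quartile scaling moved the median log2 fold change to 0.02 and the share of calls that are higher from 49.0% to 62.0%. In LPAR2-/- mice, pairs over 0.7 numbered 12 by Pearson r, 7 by Spearman rho and between 5 and 18 without 1 mouse. Of 9 neighbours in the order of WT levels, 7 differed with all mice and between 0 and 6 without 1 mouse, and in LPAR2-/- mice 7 and between 7 and 8. With 6 mice no exact p is under 0.03125, and the adjustment then passes either no pair or at least 6. Counting error itself was largest for Sdf2l1, at 6.31% in WT and 8.51% in LPAR2-/- mice. Among LPAR2-/- mice it took more of the spread in Creld2 (5.68% of 6.65%) than in Sdf2l1 (8.51% of 13.4%).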
